A study of Homo sapiens with 18 samples.

Results

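Aminoacyl-tRNA synthetases, the enzymes that join each amino acid to its tRNA, were followed in U251 cells, an established human glioblastoma line. The list held 35 genes, 19 for cytosolic and 16 for mitochondrial enzymes. Members were found through probe sets that the array annotation assigns to a single listed gene. Where a gene had several such probe sets, the one with the highest mean over all 18 arrays was taken. This rule found 32 of the 35 genes, 17 cytosolic and 15 mitochondrial, among 19775 genes with a probe set of their own. All 32 passed the filter on low levels and were tested together with the other genes, 12376 in all. Array values of MARS1, QARS1 and TARS2 were not analysed here, because the annotation gives each of their probe sets further symbols.

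The series concerns glioma cell death on GSK3 inhibition. Its cells received DMSO, the solvent, or enzastaurin, an inhibitor designed for the beta form of protein kinase C that also acts on GSK3. RNA was taken at 4, 10 or 18 h, which gives 6 groups of 3 Affymetrix HG-U133 Plus 2.0 arrays: DMSO at 4, 10 and 18 h and enzastaurin at 4, 10 and 18 h. All groups are the same line. The sample titles set DMSO and enzastaurin arrays of one time apart by the agent, whose dose the labels do not state. A difference in dishes or array batch, which the titles do not give, could not be told apart from an effect of the agent. A single line is 1 genetic background. Nothing in the labels states whether the 3 arrays of a group came from separate dishes, and the p-values therefore reflect the spread among these samples, possibly technical spread only.

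Each array gave 1 scaled intensity per probe set for 54613 probe sets, with array medians of 99.2 to 125.9. Of the astroglial and glioma markers, VIM, CD44, NES and SOX9 were well above the level filter on every array. GFAP and S100B, which define mature astrocytes, lay below that filter, with at most 101.2 for GFAP and 35.0 for S100B on any array. Of 10 markers of blood, endothelium, epithelium, neurons and oligodendrocytes, 4 passed the filter and the neuronal gene SYT1 alone of them was called: its log2 change was 0.39 (adjusted p = 0.0491) at 10 h and 0.86 (adjusted p = 2.76e-05) at 18 h in limma. The summed intensity of these 10 genes was 1076.3 to 1419.7 in DMSO and 1449.5 to 2094.3 in enzastaurin at 18 h. SYT1 by itself had 384.2 to 449 in DMSO and 717.2 to 854 in enzastaurin there. The sums overlapped at 4 h, with 1358.9 to 1637.1 in DMSO and 1099.9 to 1374.1 in enzastaurin. They also overlapped at 10 h, with 996.4 to 1119.2 and 1058.3 to 1717.6. RBFOX3, the other neuronal marker, stayed under the filter. NES fell by 0.67 at 18 h (adjusted p = 3.01e-06). The part of these genes in the results below was not tested.

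Human cells carry separate enzymes for their cytosolic and mitochondrial ribosomes, all encoded in the nucleus and mostly by distinct genes. GARS1 and KARS1 each serve both compartments, and EPRS1 joins the glutamyl and prolyl enzymes in a single chain. Several cytosolic enzymes sit together in the multi-synthetase complex, whereas others act free in the cytosol. When uncharged tRNA builds up or other stress kinases are active, eIF2 phosphorylation favours translation of the transcription factor ATF4, and cytosolic synthetase genes are among its known targets together with ASNS, TRIB3 and SESN2. ATF4 pairs with C/EBP proteins at the C/EBP-ATF response element.

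The sequences around this element are shown because it is the known binding site of ATF4, and the array values of the genes that hold it can be set beside it. Promoter windows from 250 bases before to 50 bases after the annotated start (RefSeq, GRCh38.p14) existed for 30 of the 35 genes, 16 cytosolic and 14 mitochondrial. Of these, 9 genes had 2 annotated starts and so 2 windows, which gives 21 cytosolic and 18 mitochondrial windows. YARS1, VARS1, LARS1, AARS2 and VARS2 had no window and were not searched. The searched core was TGATGNAA on either strand, printed in capitals within 30 bases of the gene's own strand, 5′ to 3′. Where the capitals begin with TT, the core lies on the opposite strand.

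AARS1, chr16:70289675-70289704, minus strand: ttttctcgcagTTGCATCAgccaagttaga
CARS1, chr11:3057407-3057436, minus strand: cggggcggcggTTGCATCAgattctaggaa
GARS1, chr7:30594834-30594863, plus strand: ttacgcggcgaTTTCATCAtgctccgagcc
IARS1, chr9:92293692-92293721, minus strand: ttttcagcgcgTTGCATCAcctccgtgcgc
NARS1, chr18:57621804-57621833, minus strand: tctacgctctcTGATGCAAcgccggaatcg
TARS1, chr5:33440956-33440985, plus strand: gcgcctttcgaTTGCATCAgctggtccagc
MARS1, chr12:57488053-57488082, plus strand: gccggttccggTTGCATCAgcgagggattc
YARS2, chr12:32756076-32756105, minus strand: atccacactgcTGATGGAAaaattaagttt

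The first 7 of these are cytosolic and the last is mitochondrial. The core occurred in at least 1 window of 7 of the 16 cytosolic genes, or 43.75%, and of 1 of the 14 mitochondrial genes, or 7.14%. Among all 27305 genes with a window, 4.46% held it. Counted by window it was 7 of 21 and 1 of 18, or 33.3% and 5.56%, beside 3.62% of all windows. In AARS1, CARS1, IARS1, MARS1 and TARS1 the capitals spelled the same 8 letters, TTGCATCA, and NARS1 carried their reverse complement. GARS1 and YARS2 differed from these at the free position of the core. CARS1, GARS1 and TARS1 each had 2 windows and held the core in 1 of them, and positions are given from the start of that window. The match began 33 bases before the start in GARS1, 13 before in IARS1, 4 before in MARS1 and 2 before in CARS1. It began at base 3 of the transcript in TARS1 and at base 15 in NARS1, and lay farther out in AARS1 and YARS2, at 187 and 197 bases before the start. Of the 14 tested cytosolic genes with a window, 9 rose at 18 h, beside 8.10% of all genes tested. The core was held by 6 of those 9 and by 0 of the other 5, which include FARSA, called higher at 10 h. How often the core occurs in risen and other genes of the whole array was not counted. This split therefore has no background, and a link between core and change was not tested. YARS1 and VARS1, which rose at 18 h too, had no window and are not in these counts. A match is a description of the letters and not evidence of binding, and the list was drawn up with these array results known. SARS1, WARS1 and EPRS1 also rose at 18 h and held no match in any window.

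An E-box, CACGTG, the palindrome recognised by MYC and related factors, was searched in the same windows. It occurred in 1 of the 16 cytosolic genes (IARS1) and in 3 of the 14 mitochondrial genes (CARS2, EARS2 and MARS2), beside 8.77% of all genes. By window it was 1 of 21 and 4 of 18, beside 7.26% of all windows, since both windows of EARS2 cover the same E-box and 1 of 2 windows of CARS2 holds one. At 18 h, where 8.10% of all genes rose, IARS1 and MARS2 were called higher. EARS2 (0.18, adjusted p = 0.283 in limma) and CARS2 were not called at 18 h. Over the 3 times together EARS2 was called higher and MARS2 was not called. CARS2 had log2 changes of 0.21, 0.05 and 0.06 at 4, 10 and 18 h, none of them called.

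**Figure D1:**
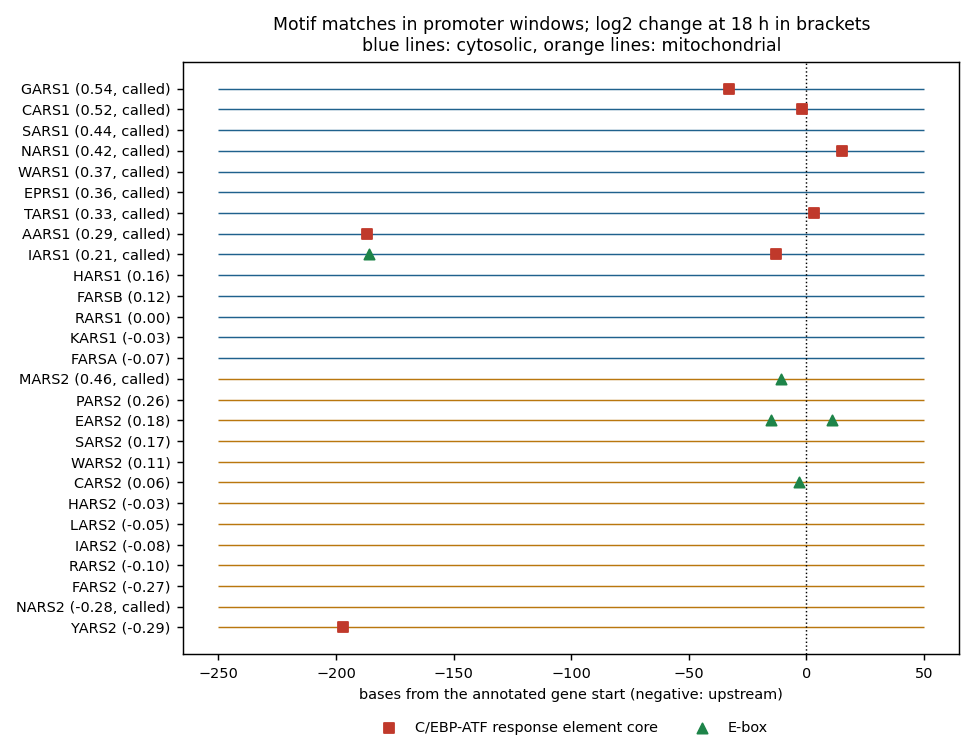
Positions of both motifs in the promoter windows of the tested members that had a window, from 250 bases before to 50 bases after the annotated start. The log2 change at 18 h (enzastaurin minus DMSO) is beside each gene. Squares mark the C/EBP-ATF response element core and triangles the E-box; the squares sit in 6 cytosolic genes that rose at 18 h and in YARS2. The 2 triangles of EARS2 are 1 site measured from 2 starts.

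One cytosolic and one mitochondrial member share a stretch of promoter. HARS1 and HARS2, the cytosolic and mitochondrial histidyl enzymes, start in opposite directions on chromosome 5 with 84 bases between their starts, so both windows cover a common stretch of 184 bases. The 84 bases, read in the direction of HARS2, are shown with the ETS core TTCCGG in capitals on either strand. This motif was added after the data were seen.

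HARS1 and HARS2, chr5:140691371-140691454, plus strand: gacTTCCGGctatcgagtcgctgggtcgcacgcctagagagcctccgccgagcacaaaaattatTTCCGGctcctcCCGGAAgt

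This core occurred 3 times in the stretch. At least 1 copy in a window was found in 20.1% of all genes, and the share with 3 copies was not counted. From 4 to 18 h in DMSO, HARS2 rose by 0.40 (SE 0.08, adjusted p = 0.000995) and HARS1 had a change of -0.12 (adjusted p = 0.232); the difference between these changes was not tested.

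With enzastaurin, mRNAs of 11 of 17 cytosolic synthetases rose at 10 h and of 11 at 18 h, while few mitochondrial ones were called and those went both ways. At 10 h 11 of 17 cytosolic genes rose and 0 fell, beside 3.77% of all genes tested that rose and 4.69% that fell. At 18 h 11 of 17 again rose and 0 fell, beside 8.10% and 7.90% of all genes. The median log2 change of the cytosolic genes was 0.28 at 10 h and 0.29 at 18 h, with a median of all genes of -0.02 and 0.00. Calls depend on precision, which differed between the classes. Fitted with every probe set and no level filter, the cytosolic probe sets used had standard errors of 0.06 to 0.09, except RARS1 (0.24). The mitochondrial ones had 0.06 to 0.20, and the median of all genes in the main fit was 0.13. A change of the same size was thus less readily called in many mitochondrial genes. Changes were modest, at most 1.5-fold, for YARS1 at 18 h.

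Changes are log2 differences between group means of intensity plus 16, which understates the change of dim probe sets, and each mean rests on 3 arrays. A gene was called where limma's p-value, adjusted by Benjamini and Hochberg over all 12376 genes, was under 0.05. All adjusted p-values below come from this fit, and the adjustment takes no account of the members having been grouped. Levels are not compared between genes, since probe sets differ in brightness.

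At 4 h limma called 0 of 17 cytosolic and 0 of 15 mitochondrial genes in either direction, and 0.558% of all genes rose and 1.25% fell. Unadjusted p-values at 4 h were under 0.05 for 3 cytosolic and 2 mitochondrial genes. The median change at 4 h was 0.09 for the cytosolic and 0.05 for the mitochondrial genes, with 0.00 for all genes. Over all settings tried, these medians ran from 0.03 to 0.21 and from 0.01 to 0.17. Of the 15 mitochondrial genes, 0 rose and 1 fell at 10 h, and 2 rose and 1 fell at 18 h. Their medians were -0.02 and -0.03. Averaged over the 3 times, 12 of 17 cytosolic genes rose and 0 fell, and 2 of 15 mitochondrial genes rose and 2 fell, beside 9.07% and 9.44% of all genes.

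Separation of the arrays gave a similar count. All 3 enzastaurin arrays exceeded all 3 DMSO arrays for 2 of 17 cytosolic genes at 4 h, 13 at 10 h and 13 at 18 h. Among all genes tested this held for 9.17%, 11.8% and 15.4%. In mitochondrial genes it held for 1, 2 and 3 of 15.

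The count at 10 h depended on settings more than that at 18 h. It was 6 with array medians subtracted, and 7 with the mean over a gene's probe sets, without the trend on level, or with only the groups compared, as also without DMSO 10 h replicate 1, DMSO 10 h replicate 3 or enzastaurin 10 h replicate 2. At 18 h these counts ran from 8 to 11. With array medians subtracted, AARS1, IARS1, NARS1, VARS1 and WARS1 lost the call at 10 h (adjusted p = 0.0552 to 0.224) and EPRS1, IARS1 and VARS1 at 18 h (0.0803 to 0.234). The 4 mitochondrial calls at single times were lost as well (0.0502 to 0.104), as were the average calls of NARS2 (0.0806) and YARS2 (0.0618). With the mean over probe sets, CARS1, SARS1, TARS1 and WARS1 lost the call at 10 h (0.125 to 0.792), EPRS1, TARS1 and VARS1 at 18 h (0.109 to 0.61), YARS2 at 10 h (0.053) and NARS2 at 18 h (0.0585), and the average call was lost for EPRS1 (0.152), TARS1 (0.283) and EARS2 (0.694).

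**Figure D2:**
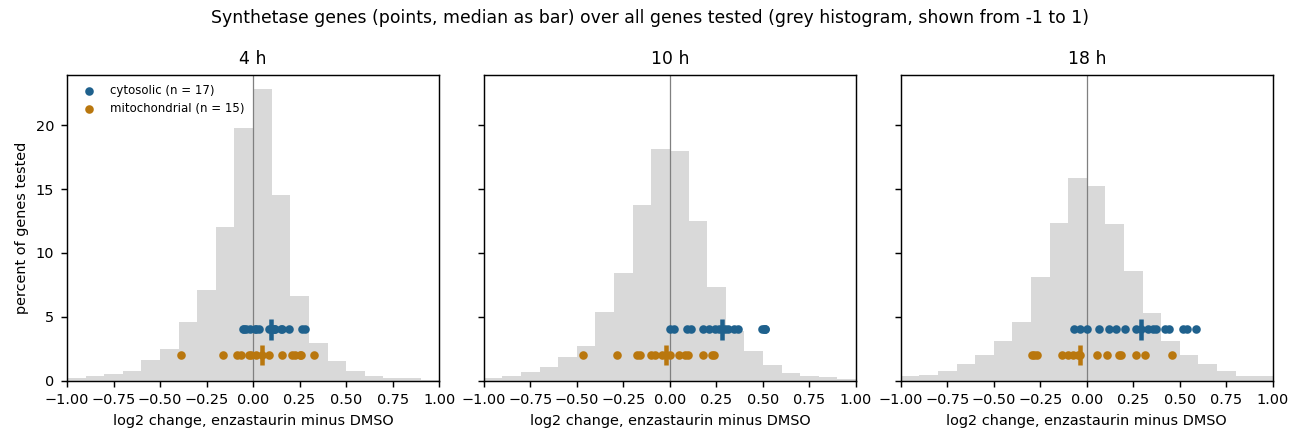
Log2 changes (enzastaurin minus DMSO) of the 17 cytosolic and 15 mitochondrial synthetase genes at each time, as points with the class median as a bar, over a histogram of all 12376 genes tested in percent of genes. The cytosolic median moves from 0.09 at 4 h to 0.28 and 0.29 at 10 and 18 h, and the mitochondrial median stays near 0.

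**Figure D3:**
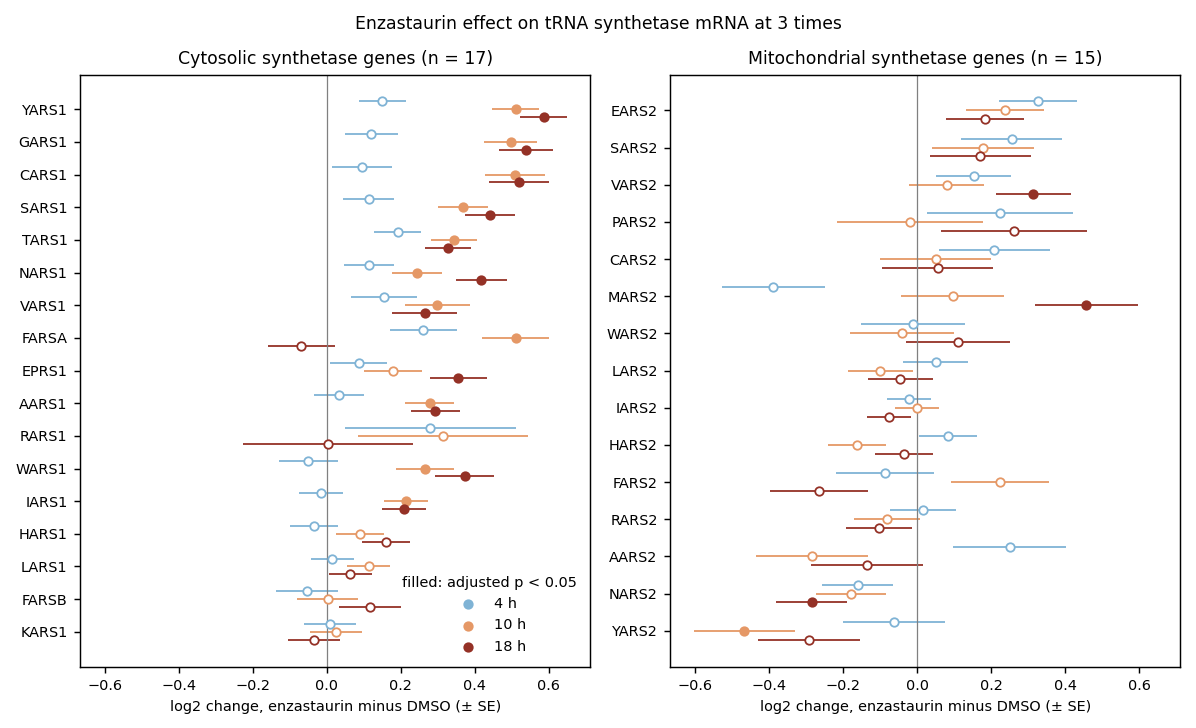
Log2 change with its standard error for each member at 4, 10 and 18 h, cytosolic on the left and mitochondrial on the right, ordered by the average over times. Filled points have an adjusted p under 0.05: 11 cytosolic genes at 10 h and 11 at 18 h, against 1 and 3 mitochondrial genes.

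The cytosolic enzymes outside the multi-synthetase complex held most of the calls. Of 12 such genes, 10 rose at 10 h and 9 at 18 h, beside 3.77% and 8.10% of all genes, with median changes of 0.32 and 0.35. Of the 5 tested complex members, IARS1 rose at 10 h and IARS1 and EPRS1 at 18 h, with medians of 0.18 and 0.06. This difference between both kinds of enzyme was not tested. MARS1 and QARS1 are also in the complex, and their array values were not analysed. RARS1, of the complex too, was called at 10 h (0.61, adjusted p = 0.00778 in limma) only without the 2 arrays of largest deviation. That setting was added after the data were seen. By catalytic fold, the standard division of these enzymes, 5 of 7 class I genes rose at 10 h and 5 at 18 h. Of 9 class II genes 6 and 5 did, beside the same 3.77% and 8.10% of all genes. EPRS1, which joins enzymes of both classes, was left out of that count.

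YARS1, the tyrosyl enzyme, whose fragments are known as secreted signals, had the smallest adjusted p of all members. YARS1 intensity was 3804, 4206 and 4274 on the DMSO arrays and 4456, 4499 and 4657 on the enzastaurin arrays at 4 h. YARS1 values at 10 h were 4343, 4471 and 4599 in DMSO and 6509, 6237 and 6379.9 in enzastaurin. YARS1 values at 18 h were 4718, 5068 and 5113 in DMSO and 6893, 7629 and 7886 in enzastaurin. The enzastaurin arrays lay above the DMSO arrays at each time, narrowly at 4 h. YARS1 rose by 0.51 (SE 0.06, adjusted p = 1.99e-05) at 10 h and 0.59 (SE 0.06, adjusted p = 1.23e-06) at 18 h, and its change at 4 h was 0.15 (adjusted p = 0.32). A dimmer YARS1 probe set gave 0.96, 0.61 and 0.55 at the 3 times, so at 4 h it showed a larger change than the brighter one, and the mean of both passed at 4 h (0.56, adjusted p = 0.0165).

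GARS1, the glycyl enzyme of both cytosol and mitochondria, was called at the same times. GARS1 intensity was 9664, 9225 and 10553 on the DMSO arrays and 10092, 10815 and 11071 on the enzastaurin arrays at 4 h. GARS1 values at 10 h were 9666, 9772 and 9575 in DMSO and 13352, 13776 and 13845 in enzastaurin. GARS1 values at 18 h were 10075, 9651 and 10315 in DMSO and 13329, 14043 and 16436 in enzastaurin. Groups overlapped at 4 h and were apart at 10 and 18 h, while DMSO arrays of different times overlapped. GARS1 rose by 0.50 (SE 0.07, adjusted p = 0.000121) at 10 h and 0.54 (SE 0.07, adjusted p = 1.75e-05) at 18 h, with 0.12 (adjusted p = 0.525) at 4 h.

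CARS1 charges tRNA with cysteine. CARS1 intensity was 4548, 4508 and 5094 on the DMSO arrays and 4740.1, 5064 and 5301 on the enzastaurin arrays at 4 h. CARS1 values at 10 h were 5266, 5776 and 5547 in DMSO and 7372, 7938 and 8316 in enzastaurin. CARS1 values at 18 h were 6301, 6227 and 6863 in DMSO and 8274, 9163 and 10473 in enzastaurin. The DMSO arrays were also higher at later times, and the enzastaurin arrays stood above them at 10 and 18 h. CARS1 rose by 0.51 (SE 0.08, adjusted p = 0.000293) at 10 h and 0.52 (SE 0.08, adjusted p = 9.53e-05) at 18 h. Its dimmer probe sets gave 0.70 and 0.49 at 10 h and 0.75 and 0.59 at 18 h, and the faintest one, under the level filter, gave -0.35 and 0.86. With the mean over all 4, the 10 h call was lost (0.34, adjusted p = 0.197).

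SARS1 charges tRNA with serine. SARS1 intensity was 4346, 4464 and 4461 on the DMSO arrays and 4405, 5078 and 4896 on the enzastaurin arrays at 4 h. SARS1 values at 10 h were 4723, 4935 and 4982 in DMSO and 6068, 6195 and 6648 in enzastaurin. SARS1 values at 18 h were 5126, 5231 and 5716 in DMSO and 6702, 7438 and 7712 in enzastaurin. Enzastaurin arrays overlapped with DMSO at 4 h and lay above it later. SARS1 rose by 0.37 (SE 0.07, adjusted p = 0.00153) at 10 h and 0.44 (SE 0.07, adjusted p = 9.53e-05) at 18 h. A second, dimmer SARS1 probe set gave -0.19 at 10 h and 0.22 at 18 h, and the mean of both lost the 10 h call (0.09, adjusted p = 0.59).

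TARS1 charges threonine. TARS1 intensity was 5679, 6494 and 6305 on the DMSO arrays and 7049, 6729.5 and 7302 on the enzastaurin arrays at 4 h. TARS1 values at 10 h were 6286, 6304 and 6842 in DMSO and 7936, 8628 and 8116 in enzastaurin. TARS1 values at 18 h were 6850.0, 6742 and 6493 in DMSO and 8170.5, 8518 and 8536 in enzastaurin. All enzastaurin arrays exceeded all DMSO arrays at each time. TARS1 rose by 0.34 (SE 0.06, adjusted p = 0.00123) at 10 h and 0.33 (SE 0.06, adjusted p = 0.000818) at 18 h, and its change at 4 h was 0.19 (adjusted p = 0.153). A second TARS1 probe set, with a mean intensity of 148 beside 7165 for the one used, gave -0.21 and -0.16. The mean of both was 0.07 at 10 h (adjusted p = 0.792) and 0.09 at 18 h (adjusted p = 0.61), so the calls rest on the brighter probe set.

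NARS1, the asparaginyl enzyme, had its larger change at 18 h. NARS1 intensity was 6626, 6756 and 6746 on the DMSO arrays and 6674, 7054 and 8120.0 on the enzastaurin arrays at 4 h. NARS1 values at 10 h were 6657, 7324 and 6746 in DMSO and 8009.5, 8741 and 7795 in enzastaurin. NARS1 values at 18 h were 6719, 6679 and 6405 in DMSO and 8909, 8707 and 8851 in enzastaurin. DMSO arrays of different times overlapped, and enzastaurin arrays were apart from them at 10 and 18 h. NARS1 rose by 0.24 (SE 0.07, adjusted p = 0.0301) at 10 h and 0.42 (SE 0.07, adjusted p = 0.000165) at 18 h. The 10 h call was lost without DMSO 10 h replicate 1 (adjusted p = 0.109), DMSO 10 h replicate 3 (0.102), enzastaurin 10 h replicate 1 (0.0575) or enzastaurin 10 h replicate 2 (0.146), and with array medians subtracted (0.224).

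**Figure D4:**
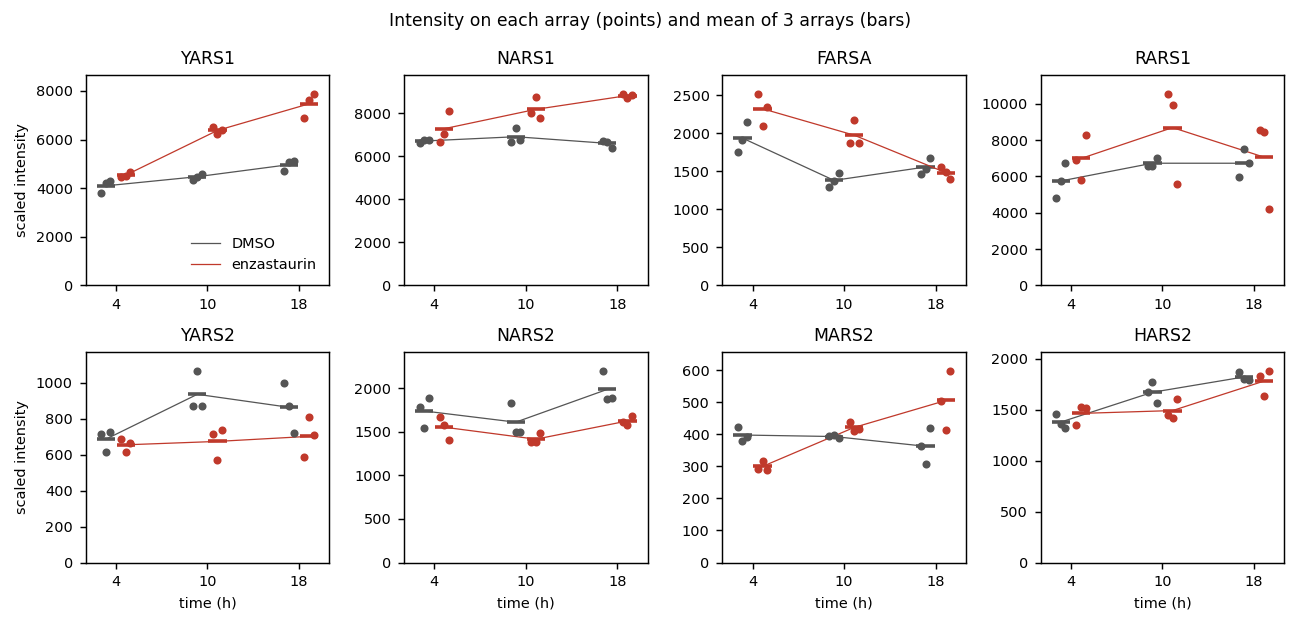
Scaled intensity on each array (points) with the mean of 3 arrays (bars joined by lines) for 4 cytosolic genes above and 4 mitochondrial genes below, against time in h, DMSO in grey and enzastaurin in red. YARS1 separates by treatment at each time, narrowly at 4 h, NARS1 at 10 and 18 h, and FARSA at 10 h only. RARS1 has 1 low enzastaurin array at 10 h and at 18 h.

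WARS1, the tryptophanyl enzyme and an interferon-inducible gene, had means of 1814 ± 132 in DMSO and 2185 ± 191 in enzastaurin at 10 h (SD, n = 3 each, as for all means below). At 18 h WARS1 means were 1834 ± 42.1 and 2383 ± 185. It rose by 0.27 (SE 0.08, adjusted p = 0.0425) at 10 h and 0.37 (SE 0.08, adjusted p = 0.00226) at 18 h, with -0.05 at 4 h, and a second probe set gave 0.24 and 0.26. The 10 h call was lost in 8 of the 18 fits that left out 1 array, with adjusted p from 0.0505 to 0.189; the arrays were DMSO replicates 2 and 3 at 4 h, 1 and 3 at 10 h, 1 and 2 at 18 h, and enzastaurin 10 h replicates 2 and 3.

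AARS1, the alanyl enzyme, which also clears mischarged tRNA, rose in DMSO from 10 to 18 h. Its means were 3388 ± 147 in DMSO and 4112 ± 194 in enzastaurin at 10 h, and 4469 ± 418 and 5464 ± 193 at 18 h. AARS1 rose by 0.28 (SE 0.07, adjusted p = 0.0116) at 10 h and 0.29 (SE 0.07, adjusted p = 0.00397) at 18 h. Without DMSO 10 h replicate 2 or enzastaurin 10 h replicate 3, the adjusted p at 10 h was 0.0668 and 0.0536, and with array medians subtracted 0.0552.

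VARS1, the valyl enzyme, bound to elongation factor 1, fell with time in DMSO and was higher with enzastaurin. Its means were 1768 ± 112 and 2184 ± 246 at 10 h and 1708 ± 186 and 2048 ± 78.8 at 18 h, DMSO first. VARS1 rose by 0.30 (SE 0.09, adjusted p = 0.0398) at 10 h and 0.26 (SE 0.09, adjusted p = 0.047) at 18 h, both near the threshold. At 10 h the call was lost without any 1 DMSO array of that time or without enzastaurin 10 h replicate 1 or 2 (adjusted p = 0.0589 to 0.208), and at 18 h in 13 of the 18 fits that left out 1 array (0.0501 to 0.222), which include every enzastaurin array of 4 and 18 h. With the replicate number as a block both were lost as well (0.0528 and 0.0602).

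FARSA and FARSB encode the alpha and beta subunits of the phenylalanyl enzyme, which work as a tetramer. FARSA intensity was 1756, 1909 and 2142 on the DMSO arrays and 2519, 2101 and 2343 on the enzastaurin arrays at 4 h. FARSA values at 10 h were 1291, 1372 and 1476 in DMSO and 1876, 2168 and 1878 in enzastaurin. FARSA values at 18 h were 1469, 1528 and 1669 in DMSO and 1551, 1496 and 1397 in enzastaurin. Enzastaurin arrays were apart from DMSO at 10 h only. FARSA rose by 0.51 (SE 0.09, adjusted p = 0.00096) at 10 h, and its changes were 0.26 at 4 h and -0.07 at 18 h, neither called. A second FARSA probe set gave 0.42 and 0.14 at 10 and 18 h. FARSB had -0.05, 0.00 and 0.12 at 4, 10 and 18 h and was not called.

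HARS1, the histidyl enzyme, stands outside the complex too. Its enzastaurin arrays lay above DMSO at 18 h with means of 4078 ± 88.4 and 4556 ± 199, and a change of 0.16 (SE 0.06, adjusted p = 0.108) that was not called.

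Among the complex members, IARS1 (isoleucine) rose by 0.21 (SE 0.06, adjusted p = 0.0295) at 10 h and 0.21 (SE 0.06, adjusted p = 0.0196) at 18 h. Its means were 7338 ± 387 and 8499 ± 229 at 10 h, and 8307 ± 333 and 9600.5 ± 496 at 18 h. The 10 h call was lost without DMSO 10 h replicate 1 (adjusted p = 0.0668) or 3 (0.146) or enzastaurin 10 h replicate 2 (0.102) or 3 (0.0745), and the 18 h call without DMSO 18 h replicate 2 (0.0957) or enzastaurin 18 h replicate 2 (0.052) or 3 (0.0843). EPRS1 rose at 18 h, by 0.36 (SE 0.08, adjusted p = 0.00277), from 3063 ± 186 to 3922 ± 248, and had 0.18 at 10 h. Other EPRS1 probe sets gave 0.12 and -0.05 at 18 h, and the mean over all 3 was 0.14 (adjusted p = 0.329).

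LARS1, the leucyl enzyme and a leucine sensor upstream of mTORC1, had 0.11 at 10 h and 0.06 at 18 h. Its enzastaurin arrays were above all DMSO arrays at both times, though neither change was called, and its other 3 probe sets gave -0.30 to -0.03 at 18 h. KARS1, the lysyl enzyme, was not called at any time, with means between 18522 and 19632 in the 6 groups and changes of 0.01, 0.02 and -0.03.

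RARS1, the arginyl enzyme, depended on a pair of arrays. RARS1 intensity was 4786, 5742 and 6725 on the DMSO arrays and 6898, 5811 and 8256 on the enzastaurin arrays at 4 h. RARS1 values at 10 h were 6593, 6555 and 7034 in DMSO and 10557, 9954 and 5561 in enzastaurin. RARS1 values at 18 h were 5971, 7496 and 6713 in DMSO and 8533, 8462 and 4183 in enzastaurin. Enzastaurin replicate 3 was the lowest of its group at both 10 and 18 h, below every DMSO array of the same time, while the other enzastaurin arrays were above them. RARS1 changes were 0.31 (SE 0.23, adjusted p = 0.497) at 10 h and 0.00 (SE 0.23, adjusted p = 0.997) at 18 h. These same arrays deviated most from their groups over all genes, with a root mean square deviation of 0.242 and 0.237 on the log2 scale and 0.188 to 0.219 for the other 16. Without both, an alternative added after the data were seen, RARS1 was called at 10 h (0.61, adjusted p = 0.00778) and had 0.34 at 18 h (adjusted p = 0.0966). Cytosolic calls were then 9 at 10 h and 9 at 18 h.

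Of the 15 mitochondrial genes, 5 were called at a time or over the average, in both directions. At 10 h 0 rose and 1 fell, beside 3.77% and 4.69% of all genes. At 18 h 2 rose and 1 fell, beside 8.10% and 7.90%. Over the average 2 rose and 2 fell, beside 9.07% and 9.44%. These small counts lie near the shares of all genes. EARS2 charges glutamate onto both the glutamate and the glutamine tRNA of mitochondria, the latter then being amidated. EARS2 intensity was 909, 1272 and 881 on the DMSO arrays and 1252, 1264 and 1282 on the enzastaurin arrays at 4 h. EARS2 values at 10 h were 1041, 1074 and 1062 in DMSO and 1213, 1292 and 1252 in enzastaurin. EARS2 values at 18 h were 1159, 1279 and 1180.2 in DMSO and 1309.9, 1518 and 1293 in enzastaurin. Arrays overlapped at 4 h and were apart at 10 and 18 h. EARS2 changes were 0.33, 0.24 and 0.18, none called at a single time. Over the 3 times it was higher by 0.25 (SE 0.06, adjusted p = 0.0061). Without DMSO 4 h replicate 2, the high DMSO array, EARS2 was called at 4 h as well (0.49, adjusted p = 0.00422). The average call was lost with the mean over its probe sets (0.06, adjusted p = 0.694). Other EARS2 probe sets gave -0.11 and -0.05 at 18 h, and the faintest one, under the level filter, gave 0.93 at 18 h and -0.96 at 10 h.

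VARS2 is the mitochondrial valyl enzyme. VARS2 intensity was 811, 788 and 884 on the DMSO arrays and 880.3, 959 and 927 on the enzastaurin arrays at 4 h. VARS2 values at 10 h were 730.3, 815 and 715 in DMSO and 876, 663 and 866 in enzastaurin. VARS2 values at 18 h were 717, 712 and 716 in DMSO and 856, 923 and 903 in enzastaurin. The 3 DMSO arrays at 18 h were nearly equal and all enzastaurin arrays of that time exceeded them. VARS2 rose by 0.31 (SE 0.10, adjusted p = 0.0384) at 18 h and was higher by 0.18 (SE 0.06, adjusted p = 0.0332) over the 3 times. The 18 h call was lost without any 1 of the 6 arrays of that time, with adjusted p from 0.0546 to 0.101, and the average without any of 12 arrays (0.0502 to 0.0774), at least 1 in each of the 6 groups.

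YARS2, the mitochondrial tyrosyl enzyme, went the other way from YARS1. YARS2 intensity was 717, 614 and 728 on the DMSO arrays and 686, 615 and 665 on the enzastaurin arrays at 4 h. YARS2 values at 10 h were 874, 1067 and 869 in DMSO and 715, 569 and 739 in enzastaurin. YARS2 values at 18 h were 998, 873 and 723 in DMSO and 589, 809.7 and 709 in enzastaurin. At 10 h the enzastaurin arrays lay below the DMSO arrays, where DMSO had risen, and groups overlapped at 4 and 18 h. YARS2 fell by 0.47 at 10 h (SE 0.14, adjusted p = 0.0382) and was lower over the 3 times, with -0.27 (SE 0.08, adjusted p = 0.0189). The 10 h call was lost without any 1 DMSO array of that time or enzastaurin 10 h replicate 1 or 2 (adjusted p = 0.0573 to 0.191), and with the replicate number as a block (0.0523).

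NARS2, the mitochondrial asparaginyl enzyme, was lower with enzastaurin. NARS2 intensity was 1784, 1544 and 1894 on the DMSO arrays and 1676, 1582 and 1404 on the enzastaurin arrays at 4 h. NARS2 values at 10 h were 1836, 1503 and 1496 in DMSO and 1387, 1379 and 1483 in enzastaurin. NARS2 values at 18 h were 2201, 1879.8 and 1885 in DMSO and 1618, 1575 and 1684 in enzastaurin. Groups were apart at 10 h and at 18 h, with enzastaurin below. NARS2 fell by 0.28 at 18 h (SE 0.10, adjusted p = 0.0482) and was lower over the 3 times, with -0.21 (SE 0.06, adjusted p = 0.011). The 18 h call was lost in 12 of the 18 fits that left out 1 array, those of all 6 arrays of 18 h among them, with adjusted p from 0.0506 to 0.223.

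MARS2, which charges methionine in mitochondria, had changes of both signs. MARS2 intensity was 422, 380.1 and 391 on the DMSO arrays and 291, 318 and 289.9 on the enzastaurin arrays at 4 h. MARS2 values at 10 h were 395, 396 and 387 in DMSO and 437, 409.9 and 416 in enzastaurin. MARS2 values at 18 h were 362, 306 and 419 in DMSO and 504, 414 and 597 in enzastaurin. Its enzastaurin arrays lay below DMSO at 4 h, just above at 10 h, and overlapped with DMSO at 18 h by 1 array. MARS2 changes were -0.39 (adjusted p = 0.215) at 4 h and 0.10 at 10 h, and it rose by 0.46 (SE 0.14, adjusted p = 0.0289) at 18 h. The 18 h call was lost without DMSO 18 h replicate 1 (adjusted p = 0.0665) or 2 (0.146) or enzastaurin 18 h replicate 1 (0.073) or 3 (0.156).

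The other 10 mitochondrial genes were not called at any single time or over the average. AARS2 had 0.25, -0.28 and -0.14 at 4, 10 and 18 h. With the mean over its probe sets, of which the second lay under the level filter, AARS2 was called lower at 10 h (-0.69, adjusted p = 0.0477). FARS2 had -0.09, 0.22 and -0.27. SARS2 had 0.26, 0.18 and 0.17, with the arrays apart at 4 and 18 h. IARS2 and RARS2 stayed within -0.10 and 0.02, LARS2 within -0.10 and 0.05, and HARS2 within -0.16 and 0.08. WARS2 ranged from -0.04 to 0.11, CARS2 from 0.05 to 0.21, and PARS2, the least precise with an SE of 0.20, from -0.02 to 0.26.

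Enzymes for the same amino acid in both compartments were set side by side in 15 pairs, with EPRS1 paired to EARS2 and PARS2, and FARSA and FARSB to FARS2. The cytosolic change exceeded the mitochondrial one in 7 pairs at 4 h, 13 at 10 h and 14 at 18 h. The median difference was -0.04, 0.25 and 0.26. Pairs that share a gene are not independent, and all pairs share the arrays, so no test is given.

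The tyrosine pair differed most, by 0.98 at 10 h and 0.88 at 18 h. Asparagine followed at 18 h with 0.70, where NARS1 rose and NARS2 fell. Alanine differed by 0.56 at 10 h and 0.43 at 18 h, and cysteine by 0.46 at both times. Valine was the exception at 18 h, with -0.05, where VARS1 and VARS2 both rose. At 10 h the exceptions were FARSB against FARS2, with -0.22, and EPRS1 against EARS2, with -0.06.

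**Figure D5:**
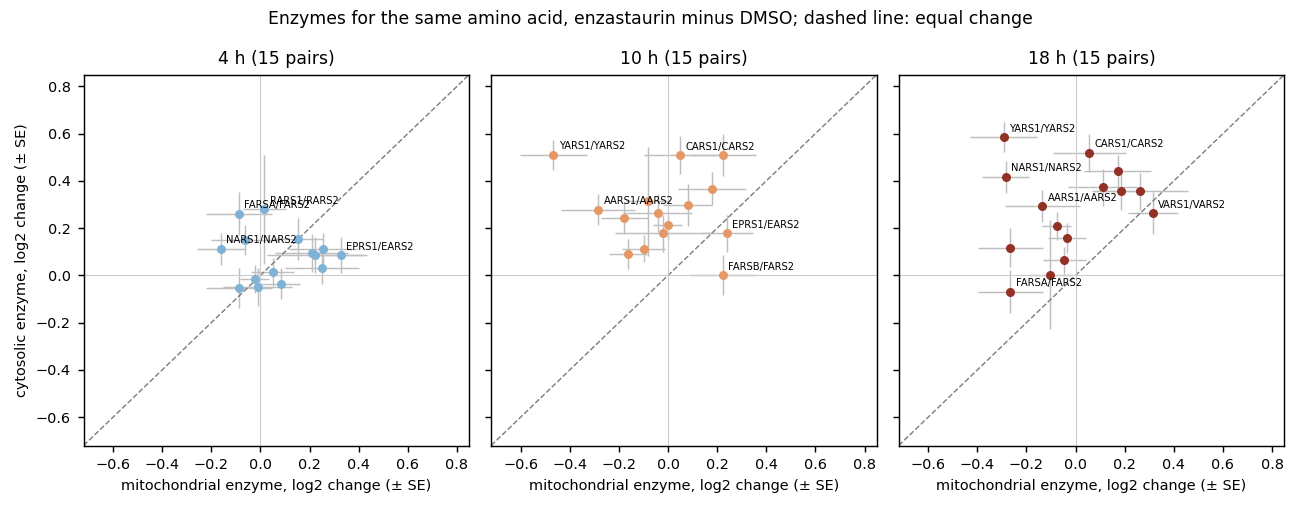
Log2 change (enzastaurin minus DMSO, with standard errors) of each cytosolic enzyme against the mitochondrial enzyme for the same amino acid, at 4, 10 and 18 h, with some pairs named. Points above the dashed line have the larger cytosolic change: 7, 13 and 14 of 15 pairs.

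Growth of the effect from 4 h onward was tested directly as the difference of enzastaurin effects, each against DMSO of its own time. From 4 to 18 h the effect increased in 5 of 17 cytosolic genes, YARS1, GARS1, CARS1, WARS1 and SARS1, and decreased in 0, beside 4.07% and 3.71% of all genes. All 5 calls were lost with array medians subtracted (adjusted p = 0.2 to 0.389), which moved the median change of all genes at 4 h to 0.12. YARS1 had the largest of these differences, 0.44 (SE 0.09, adjusted p = 0.00374), but 0.01 (adjusted p = 0.984) with the mean over its probe sets. That mean also ended the call of WARS1 (0.29, adjusted p = 0.239) and SARS1 (0.30, adjusted p = 0.0961). SARS1 was the weakest, 0.33 (adjusted p = 0.0408), and lost the call in 12 of 18 fits that left out 1 array (adjusted p = 0.0502 to 0.122), and CARS1 lost it without DMSO 4 h replicate 3, DMSO 18 h replicate 1 or 2, enzastaurin 4 h replicate 1 or enzastaurin 18 h replicate 3 (0.0568 to 0.0738). WARS1 lost it without DMSO 4 h replicate 2, DMSO 18 h replicate 2, enzastaurin 4 h replicate 1 or enzastaurin 18 h replicate 3 (0.0526 to 0.0742). Of the 15 mitochondrial genes MARS2 alone increased, by 0.85 (SE 0.20, adjusted p = 0.01).

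From 4 to 10 h the increase was called for YARS1 alone of 32 members, 0.36 (adjusted p = 0.0475), beside 0.808% of all genes higher and 0.598% lower, and this call was lost in 15 of 18 fits that left out 1 array (adjusted p = 0.051 to 0.132). The YARS1 difference was 0.0044 (adjusted p = 0.996) with the mean over its probe sets, and with array medians subtracted 0.26 (0.488). GARS1 and CARS1 had 0.38 (adjusted p = 0.0784) and 0.41 (adjusted p = 0.0856). From 10 to 18 h 0 members increased and FARSA decreased, beside 1.33% and 0.905% of all genes. The FARSA difference was -0.58 (SE 0.13, adjusted p = 0.0175), and was lost without DMSO 10 h replicate 1 (adjusted p = 0.0522), DMSO 18 h replicate 3 (0.052) or enzastaurin 10 h replicate 2 (0.0548). It was also lost with array medians subtracted (-0.60, adjusted p = 0.199) and with the mean over probe sets (-0.43, adjusted p = 0.153).

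Some members were also called in solvent alone, the mitochondrial ones no more often than all genes. Whether the counts differ from the shares of all genes was not tested. From 4 to 18 h in DMSO, 4 of 17 cytosolic genes rose and 2 fell, and 1 of 15 mitochondrial genes rose and 1 fell, beside 11.3% of all genes higher and 9.00% lower. CARS1 rose by 0.45 (adjusted p = 0.000379), AARS1 by 0.40 (adjusted p = 2e-04), YARS1 by 0.28 (adjusted p = 0.00327) and SARS1 by 0.27 (adjusted p = 0.00657). VARS1 fell by 0.39 (adjusted p = 0.00317) and FARSA by 0.31 (adjusted p = 0.0182). WARS2 fell by 0.63 (adjusted p = 0.00287), from 933 ± 128 to 607 ± 146. Without DMSO 4 h replicate 3 or DMSO 18 h replicate 1 or 2 the FARSA fall was not called (adjusted p = 0.109, 0.08 and 0.0564). With the mean over probe sets the 4 to 18 h change was -0.21 for WARS2 (adjusted p = 0.431), -0.06 for FARSA (0.743) and 0.35 for CARS1 (0.102), so these calls were lost. With array medians subtracted FARSA (0.141) and YARS1 (0.0641) were not called.

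Between 4 and 10 h in DMSO, FARSA (-0.48), VARS1 (-0.34) and LARS1 (-0.18) fell among the cytosolic genes and 0 rose. YARS2 (0.44) and HARS2 (0.27) rose and WARS2 (-0.46) fell among the mitochondrial ones, beside 11.5% and 6.61% of all genes higher and lower. Of these 6 genes, all but FARSA lost the call without at least 2 of the DMSO arrays of 4 and 10 h, left out in turn, with adjusted p from 0.0521 to 0.153. With array medians subtracted FARSA (adjusted p = 0.0617), VARS1 (0.235), LARS1 (0.682) and WARS2 (0.0989) were not called, and LARS1 had -0.07. FARSA had -0.24 (0.12) and WARS2 -0.22 (0.388) with the mean over probe sets. Between 10 and 18 h AARS1 alone rose, by 0.39 (adjusted p = 0.0013), and 0 fell, beside 2.02% and 3.30%; with array medians subtracted its adjusted p was 0.0595. The DMSO arrays of a time are also the reference for the enzastaurin effect at that time, so a shift in DMSO enters both: FARSA and YARS2, for example, were called at 10 h against a DMSO group that had itself moved since 4 h, down for FARSA and up for YARS2. In enzastaurin, FARSA means were 2321 ± 210.0, 1974 ± 168 and 1481 ± 78.4, and YARS2 means 655 ± 36.8, 674 ± 91.7 and 703 ± 110.5.

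Genes of the amino acid response, which share regulation with cytosolic synthetases in the textbook pathway, moved in the same arrays. Of 9 tested, 3 rose at 4 h, 7 at 10 h and 7 at 18 h, and 0 fell. Of all genes tested, 0.558%, 3.77% and 8.10% rose at these times and 1.25%, 4.69% and 7.90% fell. The list was chosen with earlier results of these data known. TRIB3, a pseudokinase that feeds back on ATF4, rose by 0.46 (adjusted p = 0.00735), 1.47 (adjusted p = 1.4e-09) and 1.74 (adjusted p = 3.36e-11). SESN2, an inhibitor of mTORC1, rose by 0.52 (adjusted p = 0.00986), 1.93 (adjusted p = 2.58e-10) and 1.18 (adjusted p = 9.59e-08). ASNS, which makes asparagine, rose by 1.02 (adjusted p = 2.9e-07) at 10 h and 1.33 (adjusted p = 2.86e-09) at 18 h. At 10 and 18 h ATF4 mRNA rose by 0.73 and 0.59, PSAT1 by 0.59 and 0.62, SLC7A11 by 0.30 and 0.40 and CHAC1 by 1.59 and 1.44. The CHAC1 change at 4 h was 1.16, the largest of the 9 genes at that time. EIF2AK4, the kinase that senses uncharged tRNA, and DDIT3 were not called, with -0.32 and 0.23 at 18 h.

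Other genes that handle tRNA were mostly not called. XPOT, which exports tRNA from the nucleus, was the 1 gene of 4 in export and maturation to rise. Its change was 0.32 (adjusted p = 0.0121) at 18 h, where 8.10% of all genes rose. AIMP1, a scaffold of the complex, had 0.16 (adjusted p = 0.0725) at 18 h and was called over the 3 times, with 0.11 (adjusted p = 0.0225). QRSL1, GATB and GATC, the mitochondrial amidation enzymes, and MTFMT had 0 calls at a single time, and QRSL1 was higher over the 3 times, with 0.24 (adjusted p = 0.00437). TARS3, a second cytosolic threonyl enzyme, had 0.40 (adjusted p = 0.134) at 18 h. Of the 3 mitochondrial elongation factors tested, GFM1 was higher at 4 h by 0.42 (adjusted p = 0.00234) and had -0.04 and 0.09 later, while TUFM and TSFM were not called. The DMSO reference moved here: GFM1 was 1623.9 to 1782.2 in DMSO at 4 h and 2408.5 to 2512.9 at 10 h. In enzastaurin it was 2101 to 2528.7 and 2305.6 to 2538.5. DTD1 and DTD2, which act on mischarged tRNA, were not called either, with 0.06 and -0.20 at 18 h. Cytosolic elongation factors EEF1A1, EEF1D and EEF2 had changes of -0.04, -0.03 and 0.02 at 18 h, and 0 of the 3 were called at any time.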

How the data were processed

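RNA of U251 cells was measured on 18 one-colour Affymetrix HG-U133 Plus 2.0 arrays, 3 in each of 6 groups. The deposited table holds a linear signal intensity per probe set, made by the authors with GCOS 1.2 per the submitters' processing notes. The 2% trimmed mean was 498.2 to 498.5 on every array, so arrays had been scaled to a common level; further steps are not given in the sources used here. Intensities ran from 0.1 to 63584.9, and no detection calls were used.

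Symbols came from the array annotation, updated by gene identifier to RefSeq names: 41091 probe sets had 1 symbol, 1801 several and 11721 none. The brightest probe set per gene was kept where its mean reached the median of all probe sets (an intensity near 102). For the tests, limma 3.58.1 (R 4.3.3) took the log2 of intensity plus 16, estimating a mean for each group over all 18 arrays with a trend on level. No test was run over the list. The pipeline was tested on simulated data. The number of arrays limits the precision.

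Members and lists were chosen with earlier results of these data known. Values on every array are given for the 6 cytosolic and 4 mitochondrial genes with the smallest adjusted p for the average effect and for genes called against their class; FARSA, RARS1 and MARS2 were added after their values were seen. From the other lists, at most 3 called genes each were named by rule, and the rest after their values were seen. Deviations from the group means correlated between -0.0814 and 0.0544 in same-numbered DMSO and enzastaurin arrays of a time, and the numbers were not taken as pairs. Motifs were searched with Python 3.11.15; the search for the ETS core was a later addition, made with the array results known. Figures were drawn with matplotlib 3.10.9.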

Additional observations from a re-analysis of the deposited data

Results flagged for a closer look

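The effect of enzastaurin against DMSO of the same time was compared between times by an interaction contrast in limma, adjusted over all genes tested, and 8 such differences among the members were called. From 4 to 18 h the log2 effect grew by 0.44 in YARS1 (adjusted p = 0.00374), by 0.42 in GARS1 (0.013), by 0.42 in WARS1 (0.0232), by 0.42 in CARS1 (0.0242), by 0.33 in SARS1 (0.0408) and by 0.85 in MARS2 (0.01). From 4 to 10 h it grew by 0.36 in YARS1 (0.0475). From 10 to 18 h it differed by -0.58 in FARSA (0.0175). With array medians subtracted, all of these but MARS2 were no longer called, with adjusted p from 0.199 to 0.488. With the mean over probe sets, the YARS1 differences were 0.01 from 4 to 18 h (0.984) and 0.0044 from 4 to 10 h (0.996), and the calls of WARS1 (0.29, 0.239), SARS1 (0.30, 0.0961) and FARSA (-0.43, 0.153) were lost.

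The same contrast was called for 4 genes named from other lists. In TRIB3 the effect grew by 1.01 from 4 to 10 h (adjusted p = 0.000424) and by 1.28 from 4 to 18 h (2.35e-06). In ASNS it grew by 0.73 (0.00597) and 1.04 (3.07e-05) over the same spans. In SESN2 it grew by 1.40 from 4 to 10 h (4.49e-05), differed by -0.74 from 10 to 18 h (0.00982), and was 0.66 above the 4 h effect at 18 h (0.00841). In GFM1 it differed by -0.46 from 4 to 10 h (0.0282). GFM1 on the DMSO arrays was 1623.9 to 1782.2 at 4 h and 2408.5 to 2512.9 at 10 h.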

How the results depend on the processing

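No member changed direction against a call in any of the 11 other settings or the 18 fits that left out 1 array, and 15 of the 26 member calls at single times were kept in each of those 18 fits. The cause of the shifts that follow was not tested. With array medians subtracted, which moved the median change of all genes at 4 h to 0.12, genes called were 79 at 4 h (54 higher, 25 lower, against 69 and 155), 443 at 10 h, 1187 at 18 h, 546 for 18 against 4 h (143 higher, 403 lower, against 504 and 459) and 1536 for DMSO over time, with 6 cytosolic genes higher at 10 h and 0 mitochondrial calls at 10 and 18 h. With the mean over probe sets they were 127, 630 and 543 (4 h, 10 h, 18 against 4 h), with 1 cytosolic gene higher at 4 h, 7 at 10 h and 0 mitochondrial genes lower at 18 h. With every probe set on its own, 4071 were called for DMSO over time. No trend gave 7 cytosolic genes at 10 h and 0 mitochondrial genes lower at 10 or 18 h; only the groups compared gave 139 genes at 4 h, 7 cytosolic genes at 10 h and 0 mitochondrial calls at 18 h. Mitochondrial genes lower at 10 h were 0 with no level filter and quantile normalization, and those called at 18 h were 0 with no level filter and without the 2 deviating arrays.

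Leaving out 1 array gave 138 to 236 genes at 4 h, 653 to 1115 at 10 h, 1525 to 2078 at 18 h and 704 to 1016 for 18 against 4 h. It gave 7 to 11 cytosolic genes higher at 10 h, 9 to 11 at 18 h, 0 to 1 mitochondrial gene higher at 4 h, 0 to 2 higher at 18 h, and 0 to 1 lower at 10 or 18 h. With the replicate block, 212, 1045 and 1946 genes were called at 4, 10 and 18 h, 10 cytosolic genes rose at 10 h and 10 at 18 h, and 0 mitochondrial genes fell at 10 h; the calls lost at single times were VARS1 at both and YARS2. Over all settings the median change of cytosolic genes was 0.03 to 0.21 at 4 h, 0.24 to 0.31 at 10 h and 0.21 to 0.34 at 18 h, and that of mitochondrial genes 0.01 to 0.17, -0.06 to 0.02 and -0.05 to 0.06.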
